A study of Mus musculus with 9 samples.

Results

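Intergenic open chromatin near coding genes was described in B16 mouse melanoma as 2166 of the 15657 regions (13.8%) that accessibility peaks formed over 9 libraries. In each library the 9214 most significant peaks on chromosomes 1 to 19 and X were used, this being the length of the shortest list, and used peaks that overlapped in any library were merged into 1 region. A region was counted here when it touched no protein-coding gene body of the RefSeq annotation of GRCm38 and lay more than 1 kb and at most 50 kb from the nearest end, 5′ or 3′, of a protein-coding gene. Of the other regions, 8595 were at most 1 kb from an end of a coding gene, 3898 lay inside a coding gene, and 998 lay more than 50 kb from any coding gene.

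The assay was ATAC-seq. Its transposase inserts adapters into DNA that is free of nucleosomes, and stretches rich in such insertions are called as peaks. B16 is a melanoma line of the C57BL/6 mouse. All 9 libraries came from tumour cells that were injected into mice and sorted from the tumours on day 15, and the labels name no deleted or introduced gene. The 3 B16_IFNg libraries came from B16 cells kept in interferon gamma before injection, for 2 weeks in replicates 1 and 2 and for 3 weeks in replicate 3. The 3 Res499 libraries came from a B16-derived line that resists immune checkpoint blockade, without added interferon, and the 3 B16_untreated libraries came from B16 cells with no treatment. The age and strain of the mice and the gate of the sort are not given in the sources used here. Nothing in the labels says that replicates were separate mice or cultures, so the p-values measure the spread between libraries, which may be technical. The resistant line is 1 line, and its difference from B16 cannot be told apart from a difference between 2 lines.

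Open DNA between genes holds several kinds of element. Enhancers are bound by transcription factors and act on promoters over a distance, and they differ more between cell types than promoters do. Promoters of long non-coding RNAs (lncRNAs), of microRNA hosts and of genes read by RNA polymerase III, such as those of tRNAs, lie in the same space. Interferon gamma induces genes of antigen presentation, and in melanocytes and melanoma the factors MITF, SOX10, AP-1 and TEAD are known to bind distal elements.

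The 2166 regions lay at a median of 12735 bp from the nearest coding gene end (quartiles 5587.75 and 24427 bp, range 1010 to 49746 bp). By non-coding annotation, 55 held a tRNA gene, 349 lay in or within 1 kb of an end of a non-coding RNA gene (16.1%), and 230 lay in the body of one (10.6%). A further 59 overlapped a pseudogene or lay within 1 kb of an end of one, and 1473 (68.0%) had none of these. Each region was counted once, under the first kind in this order that applied. They had 1800 different nearest coding genes, 1504 of them with 1 such region, 238 with 2 and 58 with 3 or more. The most was 4, reached near genes that included Klrb1c, Pisd, Bahcc1, Ccnl1, Ccne1, Phlda1, Wnt7b, Irf2bp2, Irf2bpl, Ubl3 and Dct. The share of a chromosome's regions that belonged here was lowest on chromosome 7 (10.3%) and highest on chromosomes 12 (18.5%) and 6 (20.2%). At the lower distance limit, the region just outside lay 1000 bp from Id1 and was used in 1 library, and the one just inside lay 1010 bp from Wdr88 and was used in 7. At the upper limit, the region just inside lay 49746 bp from Rwdd3 with 5 libraries, and the one just outside lay 50045 bp from Podxl with 1 library.

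The sequences that can be shown are those of non-coding RNA starts, since a genome was not used here. RefSeq promoter windows on GRCm38 run from 250 bases before to 50 after a start, and 147 windows of 137 genes had at least 150 of their 300 bases inside 128 of the intergenic regions. The first 3 are shown because their regions were used in all 9 libraries. They are the starts of Snhg8, a host of a small nucleolar RNA (chr3:123508287-123508586, minus strand), of Dancr, a lncRNA that also hosts one (chr5:74092810-74093109, plus strand), and of Lockd, which lies downstream of the cell cycle inhibitor gene Cdkn1b (chr6:134928842-134929141, plus strand). Capitals mark matches on either strand to 1 of the motifs spelled out after the sequences.
Snhg8: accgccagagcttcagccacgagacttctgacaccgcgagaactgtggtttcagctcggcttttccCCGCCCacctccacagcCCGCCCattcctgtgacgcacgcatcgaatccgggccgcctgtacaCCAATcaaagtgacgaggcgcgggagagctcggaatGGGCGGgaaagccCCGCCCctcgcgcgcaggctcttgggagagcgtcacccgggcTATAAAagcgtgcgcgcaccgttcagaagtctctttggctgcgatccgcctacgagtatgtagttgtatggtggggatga
Dancr: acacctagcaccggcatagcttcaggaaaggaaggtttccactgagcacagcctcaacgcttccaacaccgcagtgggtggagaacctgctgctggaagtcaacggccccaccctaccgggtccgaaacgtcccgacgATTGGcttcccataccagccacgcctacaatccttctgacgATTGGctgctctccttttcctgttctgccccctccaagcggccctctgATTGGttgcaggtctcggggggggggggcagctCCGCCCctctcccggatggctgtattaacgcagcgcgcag
Lockd: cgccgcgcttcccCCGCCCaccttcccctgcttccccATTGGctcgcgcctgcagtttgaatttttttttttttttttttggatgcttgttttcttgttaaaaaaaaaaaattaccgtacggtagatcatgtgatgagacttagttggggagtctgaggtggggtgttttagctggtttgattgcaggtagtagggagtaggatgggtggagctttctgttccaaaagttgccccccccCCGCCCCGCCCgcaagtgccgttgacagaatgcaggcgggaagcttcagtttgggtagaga

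The next 2 windows belong to regions whose calls differed between groups, as described further on. E030011O05Rik starts near Zbtb38 (chr9:96752782-96753081, minus strand) and Gm4262 near Litaf (chr16:11008648-11008947, plus strand).
E030011O05Rik: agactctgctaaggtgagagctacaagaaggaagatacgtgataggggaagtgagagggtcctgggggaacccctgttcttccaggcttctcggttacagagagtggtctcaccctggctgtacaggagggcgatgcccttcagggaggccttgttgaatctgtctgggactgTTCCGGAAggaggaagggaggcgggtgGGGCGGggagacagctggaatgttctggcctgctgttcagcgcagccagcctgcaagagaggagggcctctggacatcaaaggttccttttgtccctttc
Gm4262: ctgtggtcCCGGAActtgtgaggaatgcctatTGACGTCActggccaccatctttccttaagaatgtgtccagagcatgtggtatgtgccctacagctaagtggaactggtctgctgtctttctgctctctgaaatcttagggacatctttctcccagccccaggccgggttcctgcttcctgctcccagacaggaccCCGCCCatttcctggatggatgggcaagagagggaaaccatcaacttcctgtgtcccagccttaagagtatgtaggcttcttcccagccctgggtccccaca

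The motifs searched were written in letters, each was read on both strands, and overlapping matches were all counted. For AP-1, the dimer of Fos and Jun proteins, the letters were TGANTCA, and for the cyclic AMP response element, CRE, they were TGACGTCA. The E-box, a site of helix-loop-helix factors such as MITF, was read as CACGTG. The GC-box, a site of Sp factors in many promoters, was read as GGGCGG. The CCAAT-box, bound by the factor NF-Y, was read by the letters of its name. The ETS motif was read as CCGGAA. For interferon regulatory factors, IRF, the motif was GAAA followed after any 2 bases by the same 4 letters again. For GAS, the interferon gamma activated site, the letters were TTCNNNGAA. The TATA-box, near which transcription of some genes starts, was read as TATAAA. The Snhg8 window held 4 GC-boxes, 1 CCAAT-box and 1 TATA-box, the Dancr window 3 CCAAT-boxes and 1 GC-box, and the Lockd window 3 GC-boxes and 1 CCAAT-box. The Gm4262 window held a CRE match at base 33, a GC-box at base 199 and an ETS match at base 9. The E030011O05Rik window held 2 overlapping ETS matches and a GC-box at base 201. A match is a run of letters and was not tested as a binding site.

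Over all windows in intergenic regions, GC-boxes were in 51.0%, against 76.2% of the 42 windows whose region was used in all 9 libraries and 24.1% of the 29 windows whose region was used in 1 or 2. The share over all 32851 windows of the same length was 35.7%, that of lncRNA windows 16.3% and that of coding windows 46.7%. AP-1 matches ran the other way, in few windows. They were in 4.76% of the windows in regions used in all 9 libraries (2 windows). In regions used in 3 to 8 the share was 6.58% (5 windows), and in those used in 1 or 2 it was 24.1% (7 windows). Over all windows in intergenic regions AP-1 matches were in 9.52%, against 9.31% of lncRNA windows and 7.81% of all windows. CRE matches were in 6 windows (4.08%, against 1.79% of all windows), those of 1300002E11Rik, 1810044D09Rik, 4930471M09Rik, Snhg15, 9430091E24Rik and Gm4262. E-boxes were in 14.3% against 7.15% of all windows, and ETS matches in 22.4% against 14.9%. CCAAT-boxes were in 38.8% against 37.4%, GAS matches in 9.52% against 8.30%, IRF matches in 4.08% against 3.44% and TATA-boxes in 15.0% against 13.6%. The GC content had a median of 56.7% in these windows and 58.3% in those of regions used in all 9 libraries, against 48.3% over all lncRNA windows. The ratio of observed to expected CpG was 0.636 and 0.778 in the same 2 sets, against 0.245 over all lncRNA windows. These shares are descriptions, and the part of GC content in them was not tested.

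Of microRNA hairpins, 11 lay within 1 kb of 10 of the regions, and 3 of those regions were used in all 9 libraries. The region near Mon2 (chr10:122985340-122986729) held the hairpin of let-7i, the region near Dnttip2 (chr3:122292781-122294181) held that of miR-760 beside a tRNA gene, and the region near Rassf7 (chr7:141221572-141222453) lay next to miR-210, a microRNA induced by low oxygen. The mature strands are printed with the seed, bases 2 to 8, in capitals. The last 2 share a seed, and their hairpins lie in or within 1 kb of 1 region near Ovca2 (chr11:75172914-75173646), which was used in 5 libraries.
mmu-let-7i-5p: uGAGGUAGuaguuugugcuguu
mmu-miR-760-3p: cGGCUCUGggucugugggga
mmu-miR-210-3p: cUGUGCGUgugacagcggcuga
mmu-miR-132-3p: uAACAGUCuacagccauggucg
mmu-miR-212-3p: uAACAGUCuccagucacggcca

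Few intergenic regions were used in every library. Of the 2166, 862 (39.8%) were used in 1 library and 181 (8.36%) in all 9, while 43.6% of the regions at coding gene ends and 12.5% of those inside coding genes were used in all 9. The regions more than 50 kb away were close to the intergenic ones, with 7.01% in all 9. For a pair of libraries, the regions used in both made up on average 0.403 of those used in either among the intergenic regions, and 0.661 among all other regions. That measure was 0.412 over the 9 pairs within a group and 0.401 over the 27 pairs between groups. On average, libraries of 1 group thus shared their intergenic regions about as much as libraries of different groups. Among all other regions the 2 means were 0.667 and 0.659. The groups differed, with intergenic values of 0.438, 0.472 and 0.525 within B16_untreated, 0.410, 0.415 and 0.369 within B16_IFNg, and 0.338, 0.389 and 0.349 within Res499. The intergenic measure ranged from 0.323 to 0.525 over the 36 pairs, which share libraries and are not independent.

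Recurrence followed the non-coding annotation. Regions with a tRNA gene were used in all 9 libraries in 11 of 55 cases, regions at a pseudogene in 16.9%, at an end of a non-coding RNA gene in 14.6%, in the body of one in 9.13%, and with no annotation in 5.97%. Regions used in 1 library made up 14.5% of the tRNA regions, 28.1% of those at non-coding ends and 43.5% of those with no annotation. Across distance the shares were closer together, with 7.23% in all 9 at 1 to 5 kb, 9.56% at 5 to 20 kb and 7.51% at 20 to 50 kb. The merged region had a median width of 858 bp when used in all 9 libraries and 232 bp when used in 1, where a region merged from more peaks can only be wider. Regions used in a single library numbered 266 in B16_IFNg, 355 in Res499 and 241 in B16_untreated. Regions used in 2 or 3 libraries of 1 group and in no other numbered 31 for B16_IFNg, 25 for Res499 and 56 for B16_untreated. Over all 15657 regions the single-library counts were 1083, 1413 and 921, and the others 149, 185 and 206, in the same order of groups. Res499 thus had more regions of the second kind than B16_IFNg over all regions and fewer among the intergenic ones, a difference that was not tested.

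**Figure D1:**
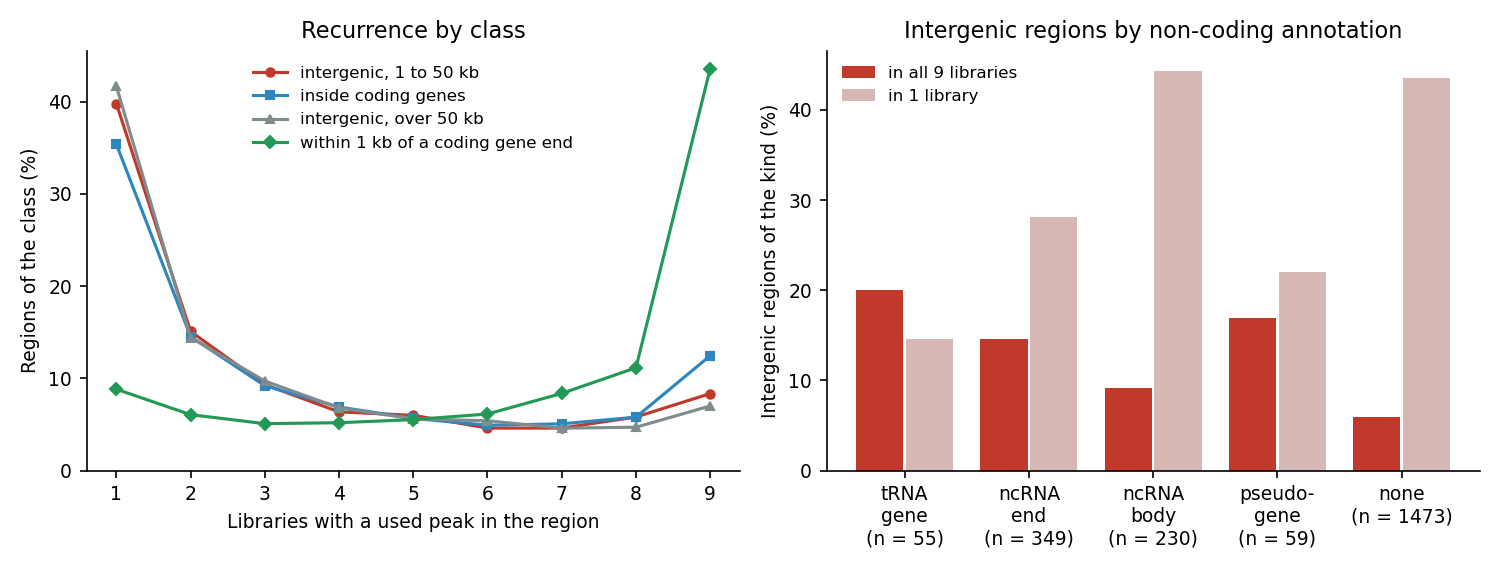
Left, the share of regions (%) used in 1 to 9 libraries, by class of region; intergenic regions 1 to 50 kb from a coding gene follow those inside coding genes and those over 50 kb away, and the regions at coding gene ends reach 43.6% at 9 libraries. Right, the share of intergenic regions of each non-coding annotation used in all 9 libraries (dark bars) and in 1 library (light bars), where 14.5% of the tRNA regions and 43.5% of those with no annotation were used in 1 library.

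Among the 10 best-ranked intergenic regions used in all 9 libraries, some lay over a pseudogene or in a lncRNA body. The region 24448 bp from Col19a1 (chr1:24612370-24613162), over the pseudogene Gm10222, ranked 1, 2 and 1 in B16_IFNg, 2, 1 and 1 in Res499, and 1, 1 and 1 in B16_untreated. A region in a lncRNA body near Rpusd4 (chr9:35305220-35305584) ranked 3 in all 6 libraries of B16_IFNg and Res499, against 8, 4 and 4 in B16_untreated. The others of the 10 best were near Ly6c2, Scaf8 (2 regions over a pseudogene), Myl12b, Gm40363 (2 regions), Slc2a3 and Csf2ra. The sources used here do not say how reads of near-identical copies were placed, and the ranks over pseudogenes are uncertain. The 5 widest regions were near Vmn1r39 (2730 bp, 3 libraries), Ltn1 (2604 bp), Tubb3 (2552 bp), Gm40363 (2391 bp) and Gpc5 (2198 bp, all 9 libraries).

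Of the 181 regions used in all 9 libraries, 88 had no non-coding annotation, 51 lay at an end of a non-coding RNA gene and 11 held a tRNA gene. The non-coding genes named in this paragraph were picked after their values were seen. Snhg8 ranked 528, 672 and 1170 in B16_IFNg, 1248, 477 and 570 in Res499, and 195, 3518 and 2449 in B16_untreated. Dancr ranked 1694, 1064 and 6461 in B16_IFNg, 2211, 381 and 2766 in Res499, and 4336, 2708 and 1925 in B16_untreated. Lockd ranked 2332, 2340 and 758 in B16_IFNg, 1769, 2763 and 3645 in Res499, and 2038, 1242 and 1004 in B16_untreated. The ranks of each overlapped between the groups. Other non-coding genes with a start or end in a region used in all 9 libraries were Snhg5, Snhg16, Crnde, Chaserr, Oip5os1, Mir22hg, the polymerase III genes Rn7sk, Rn7s2 and Rny1, and the 11 regions with tRNA genes. The let-7i region ranked 4763, 3502 and 2467 in B16_IFNg, 2496, 836 and 1308 in Res499, and 4539, 2207 and 2349 in B16_untreated, and the Res499 ranks overlapped those of both other groups.

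The first comparison between groups was the share of used peaks that fell in intergenic regions. It was 8.22%, 7.94% and 9.47% in B16_IFNg (mean 8.54% ± 0.817, SD, n = 3), 7.97%, 8.40% and 8.67% in Res499 (8.35% ± 0.356, n = 3), and 9.20%, 9.49% and 10.04% in B16_untreated (9.58% ± 0.425, n = 3). All 3 Res499 libraries lay under all 3 untreated ones, and B16_IFNg replicate 3 lay among the untreated. With B16_IFNg and Res499 as 1 group, the mean was 8.45% against 9.58% in B16_untreated, a difference of -1.13 percentage points (p = 0.0357 in a two-sided exact permutation test with 84 arrangements, smallest possible 0.0119). The 12 tests of share, width and rank formed 1 family, and after Benjamini-Hochberg adjustment over them this exact permutation p was 0.429, so the lower share did not pass. B16_IFNg differed from B16_untreated by -1.03 points and Res499 by -1.23 points (exact permutation p = 0.2 and 0.1, both 0.48 adjusted), and with 3 libraries against 3 no p under 0.1 was possible. Res499 differed from B16_IFNg by -0.199 points (exact permutation p = 0.9, adjusted 0.982).

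The other classes of peak were set beside these values. Peaks inside coding genes made up 17.0% in B16_IFNg and Res499 against 18.9% in B16_untreated, and peaks at coding gene ends 70.8% against 67.4% (exact permutation p = 0.0595 for each, 0.106 after adjustment over 16 further tests that were chosen after the data were seen). As a share of all used peaks more than 1 kb from a coding gene end, intergenic peaks made up 28.9% against 29.3% (difference -0.425 points, exact permutation p = 0.262), which did not pass the test. That difference was larger under other settings, at -0.640 points without the first Res499 library (exact permutation p = 0.0357), -2.04 points with 4607 peaks per library (p = 0.0595) and -1.24 points with all deposited peaks (p = 0.0833). Within the intergenic peaks, those with no non-coding annotation made up 5.14% of used peaks against 5.93% (-0.798 points, exact permutation p = 0.0476, adjusted 0.106). Peaks at tRNA genes and non-coding RNA ends made up 2.15% against 2.32% (-0.175 points, exact permutation p = 0.119). This unadjusted exact permutation p changed to 0.0119 with all deposited peaks (-0.497 points) and to 0.0357 without the third B16_IFNg library (-0.215 points). Over 19 alternative settings the unadjusted exact permutation p ran from 0.0119 to 0.357, and the measure belonged to neither family of adjusted tests.

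Some properties of the libraries were also compared between the groups, and their part in the share was not tested. The deposited lists held 11179 to 16229 peaks in B16_IFNg, 9214 to 15382 in Res499 and 15039 to 25357 in B16_untreated on the chromosomes used (exact permutation p = 0.0357, adjusted over the 16 tests 0.0952, for the first 2 groups together against B16_untreated). The least significant used peak had a −log10 p of 7.46 to 10.1 in B16_IFNg, 4.92 to 8.75 in Res499 and 11.8 to 16.4 in B16_untreated. When all deposited peaks were used, the share was 11.2% against 16.3%, a difference of -5.12 points (exact permutation p = 0.0119, the smallest possible). Library read totals are not among the deposited values. A background fragment density was taken as the lowest local background recovered from fold and −log10 p, divided by the length of the shortest peak. It was 7.59 to 9.17 per kb in B16_IFNg, 8.68 to 11.1 in Res499 and 8.14 to 10.8 in B16_untreated, which overlapped (exact permutation p = 0.726). The shortest peak stands in for the fragment length there, so this density is not a measure of read depth. The libraries also fell into 2 sets by their shortest peak, 95 to 125 bp in 5 of them and 162 to 185 bp in the third B16_IFNg library, the third Res499 library and the first and the third B16_untreated libraries. Within these sets the difference in share was -0.951 points (exact permutation p = 0.0667 with 30 arrangements, smallest possible 0.0333).

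Median widths were lower in B16_IFNg and Res499 than in B16_untreated for intergenic peaks and for all other peaks, although no width test passed after adjustment. Their median width was 352, 240 and 390 bp in B16_IFNg (327 ± 78.0, SD, n = 3), 268, 230 and 376 bp in Res499 (291 ± 75.7, n = 3), and 465, 390 and 592 bp in B16_untreated (482 ± 102, n = 3). The third B16_IFNg library tied with the second untreated one, and all other treated or resistant values were lower. The means differed by -173 bp (309 against 482 bp, exact permutation p = 0.0357, adjusted 0.0952) and by -131.5 bp within the sets by shortest peak. All other used peaks had median widths averaging 458 against 676 bp (exact permutation p = 0.0119, adjusted 0.0635).

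The widths were also compared over the 181 intergenic regions used in all 9 libraries, where the regions compared are the same. Their median peak width was 502, 374 and 550 bp in B16_IFNg, 426, 371 and 507 bp in Res499, and 629, 586 and 764 bp in B16_untreated. No library of B16_IFNg or Res499 reached the narrowest of the untreated. The means were 455 ± 75.4 bp (SD, n = 6) against 660 ± 92.9 bp (n = 3), a difference of -205 bp (exact permutation p = 0.0119, the smallest possible, and 0.0635 adjusted over the 16 tests). Over the other regions used in all 9 libraries the means were 576 against 792 bp. Summits of intergenic peaks held a median of 12 to 17 fragments in B16_IFNg, 12 to 20 in Res499 and 26 to 31 in B16_untreated, and the part of signal depth in the widths was not tested.

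Set against the other peaks of the same library, the width of intergenic peaks did not differ between groups beyond the spread. The ratio of the median widths was 0.672 in B16_IFNg and Res499 together against 0.709 in B16_untreated (-0.0377, exact permutation p = 0.524, adjusted 0.898). It was 0.683 ± 0.0775 in B16_IFNg, 0.660 ± 0.0844 in Res499 and 0.709 ± 0.0809 in B16_untreated (SD, n = 3 each). The exact permutation p was 0.7 for B16_IFNg and 0.6 for Res499 against B16_untreated, and 0.8 for Res499 against B16_IFNg (adjusted 0.933, 0.9 and 0.96).

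Intergenic peaks sat low in every list. Their median rank, as a percentage of the 9214 used peaks where a low value is more significant, was 67.2%, 70.3% and 63.8% in B16_IFNg, 68.4%, 66.8% and 65.7% in Res499, and 66.7%, 64.7% and 63.3% in B16_untreated. Peaks at coding gene ends had median ranks of 43.5% to 44.7% over the 9 libraries and those inside coding genes 61.9% to 64.2%. Between 42 and 60 intergenic peaks were among the first 1000 of a library. The mean was 67.0% in B16_IFNg and Res499 against 64.9% in B16_untreated, a difference of 2.13 points (exact permutation p = 0.190, adjusted 0.48). The difference from B16_untreated was 2.18 points for B16_IFNg (exact permutation p = 0.4) and 2.07 for Res499 (p = 0.2), and Res499 differed from B16_IFNg by -0.107 points (p = 1). With the 4607 most significant peaks of each library the difference turned round, to -2.78 points (exact permutation p = 0.0714).

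**Figure D2:**
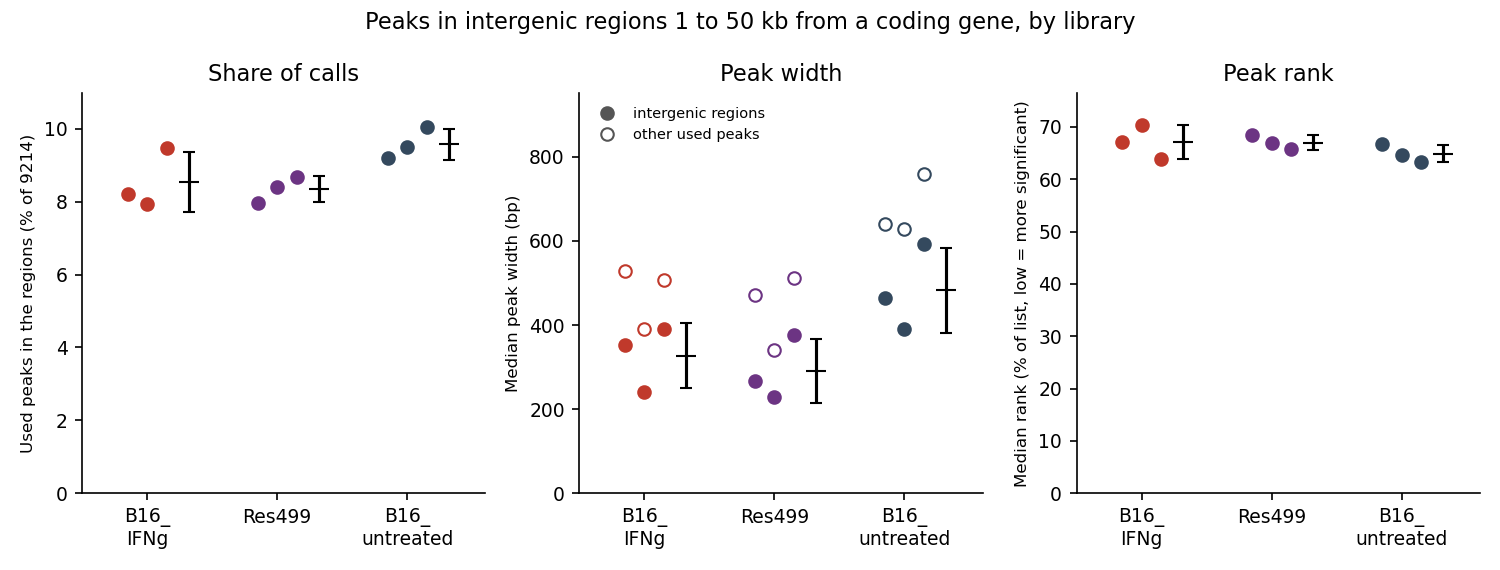
Each point is 1 library of B16_IFNg, Res499 or B16_untreated, and the bars give the mean and SD of the 3 intergenic values of a group. The panels show the share of the 9214 used peaks in intergenic regions (%), the median peak width (bp; filled for intergenic peaks, open for all other used peaks) and the median rank (% of the list); the shares run from 7.94% to 10.04% and the intergenic widths from 230 to 592 bp.

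A region was then called gained in a group when every library of that group used it and no library of the other did, and lost in the opposite case. These calls are descriptions with no test per region, since 3 libraries against 3 cannot reach a p under 0.1. They were read against the same calls over all regions used in at least 3 libraries of the comparison. That share was computed for the main setting only. Counts under other settings have none beside them and do not show whether intergenic regions stood out. The 3 comparisons with B16_untreated share its libraries, so their lists are given side by side and their overlap is not a result.

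With B16_IFNg and Res499 together against B16_untreated, 12 of 977 intergenic regions (1.23%) were lost and 0 were gained, against 0.3% lost and 0.0655% gained over all 10680 regions. The share lost was 0.615% inside coding genes, 1.14% more than 50 kb away and 0.0410% at coding gene ends. Of the 12, 10 had no non-coding annotation and 2 lay in the body of a non-coding RNA gene. None was used in the 6 libraries of B16_IFNg and Res499, and their untreated ranks ran from 2592 to 8850. In the full deposited lists 10 of the 12 had a peak in at least 1 library of B16_IFNg or Res499, and the regions near Tmem241 and Il1b had none. The count was 39 without the first, 25 without the second and 17 without the third untreated library, 3 with 4607 peaks per library and 122 with all deposited peaks.

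The region near 1700057G04Rik (chr9:92360630-92361146), ranked 2592, 5249 and 3531 in the 3 untreated libraries and was the best-ranked of the 12. One 47216 bp from Prune2 (chr19:17271179-17271597) ranked 4771, 4768 and 5085 in B16_untreated, with peaks of 344, 363 and 397 bp. None of the 6 libraries of B16_IFNg and Res499 used either region, and the full lists held a Prune2 peak in 2 B16_IFNg libraries and in no Res499 library. The region 22517 bp from Il1b, the gene of the inflammatory cytokine interleukin 1 beta (chr2:129393681-129394022), had no peak in any full list of the 6 B16_IFNg and Res499 libraries and ranked 8588, 5246 and 5629 in B16_untreated. The region 1645 bp from Ifna13, a type I interferon gene (chr4:88641088-88641996), had a peak below the 9214 used in all 3 full B16_IFNg lists and 2 full Res499 lists, and ranked 5149, 6555 and 6559 in B16_untreated. The region 20676 bp from Lcp2 (chr11:34112957-34113475) ranked 7543, 6123 and 8850 in B16_untreated. Lcp2 encodes an adaptor of T cell receptor signalling and was 1 of 18 leukocyte marker genes, none of the other 17 of which had an intergenic region. Of the 18 genes, 1 had a used peak at a gene end, in Res499 replicate 2 alone. These are calls among the used peaks and not levels, and the part of leukocyte DNA in the Lcp2 call was not tested.

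The remaining 7 lay near genes of varied roles. The capping enzyme gene Rngtt (chr4:33289917-33290730) had a region with untreated ranks of 4133, 4809 and 6366. Tcte2 (chr17:13699684-13700868) had 7879, 3479 and 4032, and the histone chaperone gene Spty2d1 (chr7:47015348-47016035) had 5201, 5190 and 6104. Xkr5 (chr8:18953899-18954278) had 6359, 5348 and 5071, and the neuropeptide receptor gene Prlhr (chr19:60463921-60464331) had 7138, 7307 and 7557. The chromatin regulator gene Kmt2e (chr5:23418346-23419008) had 7888, 8287 and 7966, and Tmem241 had 5644, 5553 and 5333. None of these 7 genes was on the gene lists described further on.

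**Figure D3:**
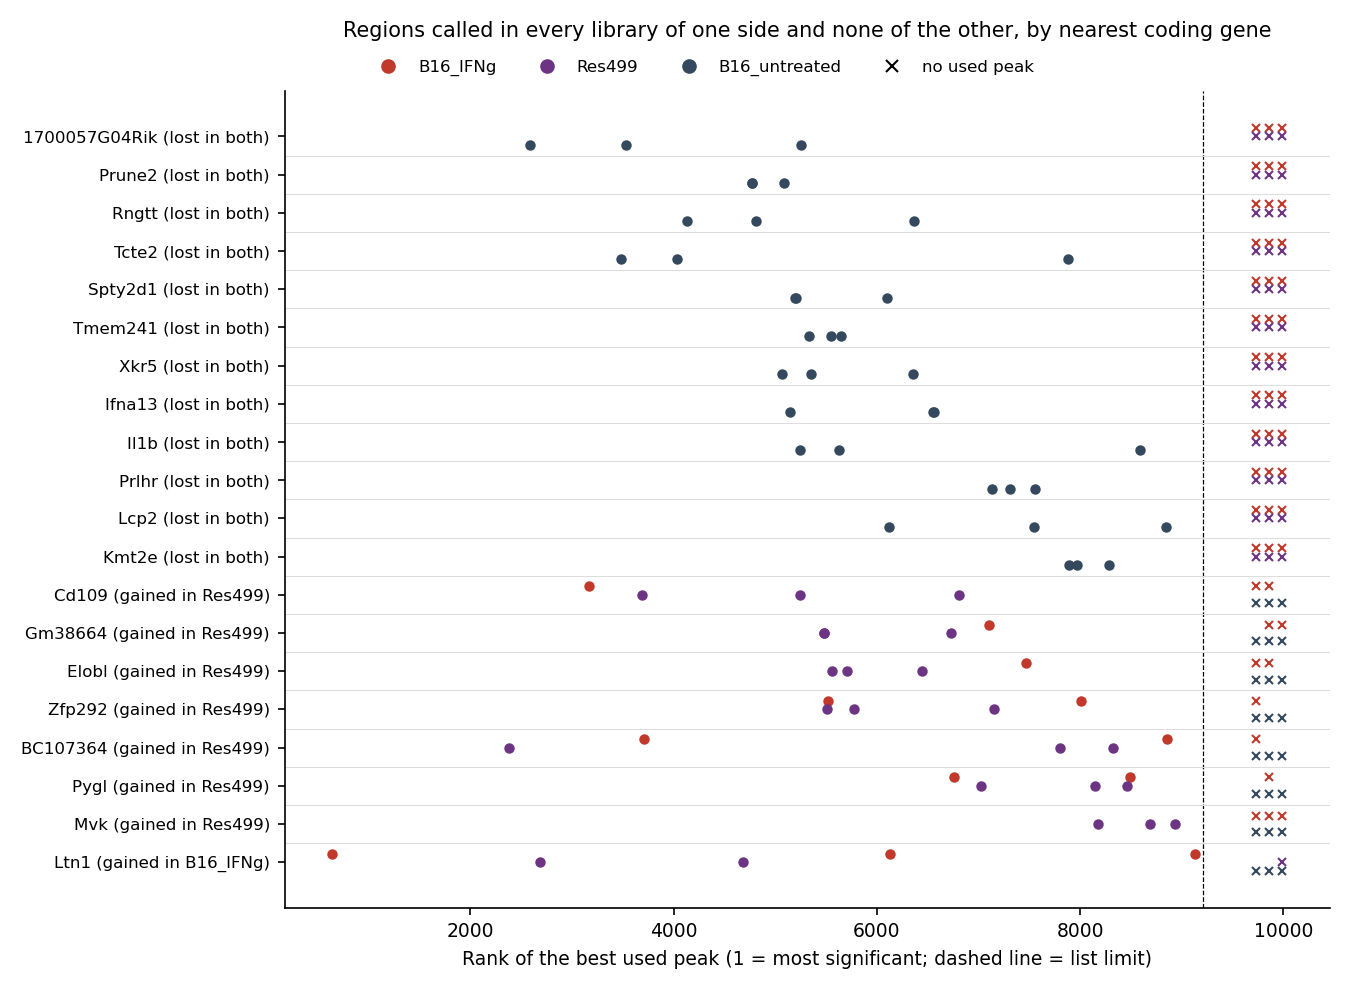
Each row is an intergenic region named by its nearest coding gene, and each dot is the rank of the region's best used peak in 1 library (1 = most significant, x axis), coloured by group; crosses at the right mark libraries with no used peak. The 12 regions lost in both groups show 3 untreated dots between ranks 2592 and 8850 and 6 crosses, and the 7 regions gained in Res499 and the 1 gained in B16_IFNg show no untreated dot.

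For B16_IFNg against B16_untreated, 22 of 801 intergenic regions (2.75%) were lost and 1 (0.125%) was gained, against 0.884% and 0.59% over all 9499 regions. Lost regions made up 1.40% inside coding genes, 4.31% more than 50 kb away and 0.358% at coding gene ends. The gained region lay 1159 bp from Ltn1, the gene of a ubiquitin ligase of ribosome quality control (chr16:87372889-87375492), and was 2604 bp wide. It ranked 9132, 6134 and 640 in B16_IFNg, 2690 and 4687 in 2 Res499 libraries, and was not used in B16_untreated, although all 3 full untreated lists held a peak there. Of the 22 lost regions, 8 had no peak in any full B16_IFNg list. Beside those lost in both groups they included 1 near Ola1 (chr2:73085941-73086409), an ATPase gene, with no peak in B16_IFNg and ranks of 8971 and 6910 in 2 Res499 libraries and 7883, 2987 and 2941 in B16_untreated, and 1 at the lncRNA Gm807 near Gm52030. The 22 became 30 to 51 without 1 of the B16_IFNg libraries, 38 to 73 without 1 of the untreated ones, 8 with 4607 peaks per library and 227 with all deposited peaks, and the 1 gained became 15 to 22 without 1 of the B16_IFNg libraries and 4 to 9 without 1 of the untreated ones.

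For Res499 against B16_untreated, 35 of 777 intergenic regions (4.50%) were lost and 7 (0.901%) gained, against 1.52% and 0.919% over all 9360 regions. Lost regions made up 3.23% inside coding genes, 3.88% more than 50 kb away and 0.657% at coding gene ends, so the share in distal regions of every kind stood above that at gene ends. Of the 35, 19 had no peak in any full Res499 list. The list lengths differ here too, with 9214 peaks in the second Res499 library, all of which were used.

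The best-ranked lost region lay 13023 bp from Cyp24a1, the gene of the enzyme that breaks down active vitamin D, at the lncRNA Gm34608 (chr2:170469619-170469934). It was used in no Res499 library, ranked 4479 in the first B16_IFNg library, and ranked 2293, 2520 and 6258 in B16_untreated, with peaks of 186 to 316 bp in the untreated libraries. The region 28358 bp from Spred1, an inhibitor of Ras-MAPK signalling (chr2:117210637-117211191), was used in no Res499 library, ranked 2941 in the first B16_IFNg library, and ranked 2770, 3961 and 4527 in B16_untreated. No full Res499 list and all 3 full B16_IFNg lists held a peak there. A second region 41111 bp from Spred1 (chr2:117079692-117079960) was used in 2 libraries, both of B16_IFNg, with ranks of 9063 and 9127. It was used in no Res499 and no untreated library. The difference between Res499 and B16_IFNg was not tested for any of these regions.

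The start of the lncRNA E030011O05Rik near Zbtb38 (chr9:96752403-96753095), whose window is printed above, had no peak in any full Res499 list and ranked 7801 and 6808 in 2 B16_IFNg libraries and 5100, 3200 and 4003 in B16_untreated. The start of Gm4262 near Litaf (chr16:11008164-11008995) likewise had none in Res499 and ranked 6464 and 8738 in 2 B16_IFNg libraries and 6900, 7426 and 8312 in B16_untreated. Both were absent from Res499 and present in at least 2 libraries of each other group. The region near the chaperone gene Hsp90aa1 (chr12:110703035-110703566) had a peak below the 9214 used in 2 full Res499 lists, and ranked 1183 and 6993 in 2 B16_IFNg libraries and 4125, 4642 and 3863 in B16_untreated. Other lost regions among the 10 best-ranked were near Susd6, Uap1 and Prkci.

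Of the 7 regions gained in Res499, each had a peak in at least 2 full untreated lists. The region 24963 bp from Mvk, the mevalonate kinase gene of sterol synthesis (chr5:114485554-114486176), ranked 8937, 8172 and 8685 in Res499 and was used in no other library. The region near Cd109 (chr9:78741913-78742542), which encodes a surface protein that binds transforming growth factor beta, ranked 6810, 3685 and 5240 in Res499 and 3171 in the third B16_IFNg library. An end of Terc, the RNA template of telomerase, lay in the region near BC107364 (chr3:96414337-96414907), which ranked 8325, 2380 and 7807 in Res499 and 3709 and 8851 in 2 B16_IFNg libraries. The others were near Gm38664, Elobl, Zfp292 and Pygl, the last at the lncRNA F730035M05Rik. The 35 lost became 49 to 61 without 1 of the Res499 libraries, 53 to 96 without 1 of the untreated ones, 11 with 4607 peaks per library and 296 with all deposited peaks. The 7 gained became 21 or 22 without 1 of the Res499 libraries, 15 without the first untreated library, 1 with 4607 peaks per library and 0 with all deposited peaks. Of the named regions, 0 of the 7 gained and 1 of the 10 lost were still called with 4607 peaks per library, and 0 and 4 with all deposited peaks.

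**Figure D4:**
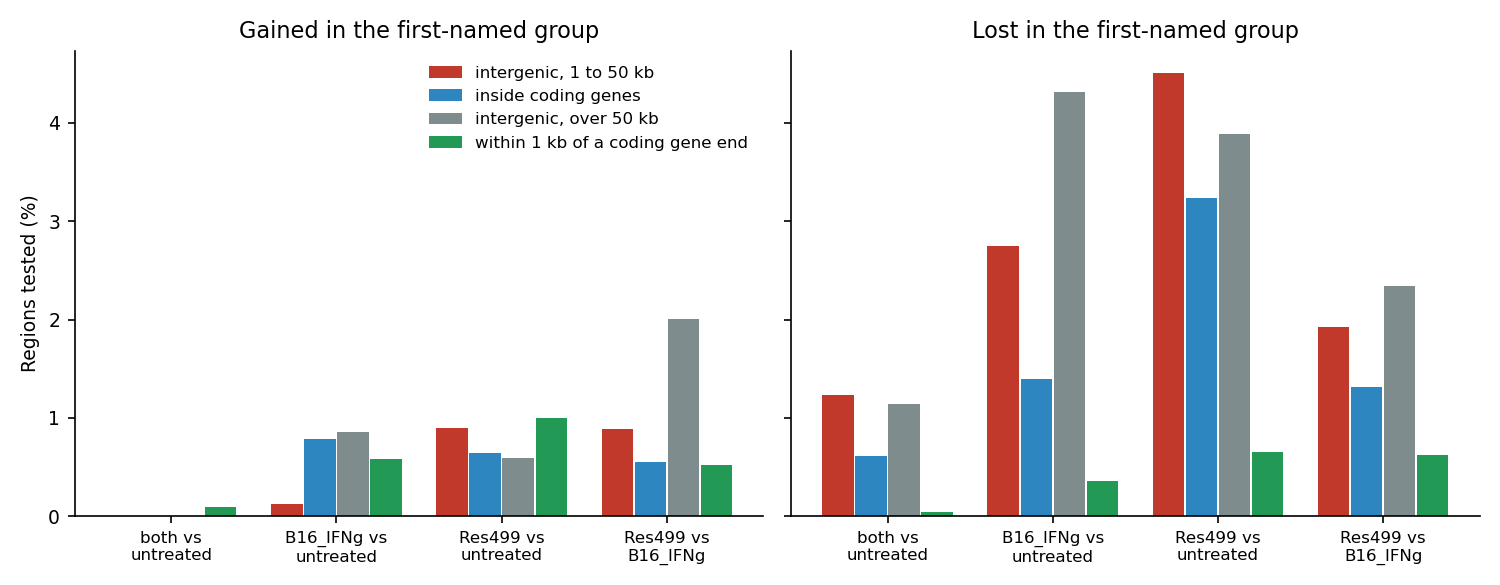
Bars give the share of tested regions (%) called gained (left) or lost (right) in the first-named group of each comparison, by class of region. Lost intergenic regions made up 1.23%, 2.75%, 4.50% and 1.92% in the 4 comparisons, and those at coding gene ends 0.0410%, 0.358%, 0.657% and 0.629%.

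Res499 was also set against B16_IFNg. There 13 of 676 intergenic regions (1.92%) were lost and 6 (0.888%) gained in Res499, against 0.886% and 0.605% over all 9258 regions. The best-ranked gain lay 26151 bp from Jdp2, a gene of the AP-1 family that represses transcription (chr12:85572093-85572505). It ranked 3657, 7616 and 3871 in Res499, was not used in B16_IFNg, and ranked 2554 and 6340 in 2 untreated libraries, and all 3 full B16_IFNg lists held a peak there. The others were near Pisd, Nek2, Gm597, Slc4a1ap and Mvk, and the Pisd gene has near copies in the genome. Of the 13 lost, the region 8456 bp from Bbc3, the gene of the apoptosis inducer PUMA (chr7:16299574-16299942), had no peak in any full Res499 list and ranked 4627, 5445 and 7636 in B16_IFNg and 8408 in 1 untreated library. The 10 best-ranked also included regions near AI429214, B4galnt4, Rrp1b, Ggcx, Adm, Pard6b, Kcnn4, Tm9sf2 and Pde10a. The 13 became 38 to 42 without 1 of the B16_IFNg libraries, 17 to 25 without 1 of the Res499 ones, 5 with 4607 peaks per library and 31 with all deposited peaks, and the 6 gained became up to 21 without 1 of the B16_IFNg libraries and 19 to 26 without 1 of the Res499 ones.

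Among the 181 intergenic regions used in all 9 libraries, ranks were compared region by region. A region was counted when every library of 1 group ranked it better than every library of the other. With arbitrary labels, 1 of the 20 arrangements of 3 against 3 libraries would give this in a set direction. For both groups together against B16_untreated it would be 1 of 84. With B16_IFNg and Res499 together against B16_untreated, 4 regions (2.21%) ranked better and 5 (2.76%) worse, against 1.27% and 1.49% of the 4483 regions of all classes. For B16_IFNg alone 10 ranked better and 9 worse (5.52% and 4.97%, against 5.2% and 4.89%). For Res499 alone 11 ranked better and 17 worse (6.08% and 9.39%, against 5.69% and 6.13%). For Res499 against B16_IFNg 12 ranked better and 15 worse (6.63% and 8.29%, against 5.06% and 5.51%). The shares for B16_IFNg were near those of all regions. The median change in mean rank, positive for worse, was 426 for both groups together, 233 for B16_IFNg and 416 for Res499, against 68.8, 15 and 45.3 over all regions. By library, the median rank of the 181 regions averaged 2784 in B16_IFNg and Res499 against 2420 in B16_untreated. That difference of 364 did not pass (exact permutation p = 0.310, adjusted over the 16 further tests 0.354).

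The regions of this paragraph were picked after their rank differences were seen. Complete orders between groups also arise with arbitrary labels, as given above, and no region was tested. The region next to miR-210 ranked 2468, 870 and 790 in B16_IFNg, 558, 154 and 471 in Res499, and 364, 427 and 375 in B16_untreated, so all 3 B16_IFNg libraries ranked it behind all others. The region 9363 bp from Hmox1, the heme oxygenase gene of the oxidative stress response (chr8:75083606-75084255), ranked 598, 2550 and 3641 in Res499, 4340, 6464 and 6844 in B16_IFNg, and 4595, 6236 and 8879 in B16_untreated. Every Res499 library was ahead of every other one there. The start of the Y RNA gene Rny1 ranked 3149, 5807 and 2830 in B16_IFNg, 2934, 6654 and 4090 in Res499, and 894, 2316 and 2525 in B16_untreated, behind the untreated in all 6 libraries. The lncRNA B330016D10Rik near Spen, a transcriptional repressor gene, ranked 847, 244 and 509 in B16_IFNg, 417, 310 and 154 in Res499, and 875, 3313 and 2296 in B16_untreated. The region 23440 bp from Cfl2 (chr12:54834889-54835375) ranked 2639, 2683 and 3469 in B16_IFNg, ahead of 7135, 6610 and 3714 in Res499 and 7176, 7026 and 7188 in B16_untreated.

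Genes of the melanoma and interferon pathways were read from 11 lists with 246 matched genes. Among 26 genes of melanocyte identity, 10 had 15 intergenic regions, of which 7 were used in at least 3 libraries and 0 in all 9. Of the genes, 14 had a used peak at a gene end in any library, and 4 had a gene end region used in all 9. Mitf, the master factor of the lineage, had a region 25167 bp away (chr6:98046527-98047254). It was not used in the first B16_IFNg library and ranked 4255 and 378 in the other two, 1419, 1320 and 2353 in Res499, and 526, 5019 and 2876 in B16_untreated. A region near Tyrp1, a melanin enzyme gene, ranked 5018, 3217 and 1313 in B16_IFNg, 6356 in 1 Res499 library, and 2680 and 3681 in 2 untreated ones. Dct, the gene of another melanin enzyme, had 4 regions within 4815 to 18150 bp, each used in 1 library. None of the 15 regions was called gained or lost, and with 7 of them used in at least 3 libraries and 0.0655% to 1.52% of all regions called in a comparison, a count of 0 says little about them.

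Among 17 AP-1 genes, 6 had 8 intergenic regions and 7 of these were used in at least 3 libraries. Fos, an immediate early gene whose product is a subunit of AP-1, had 3. The one 17933 bp away, in a non-coding RNA body (chr12:85455014-85455957), ranked 1594, 907 and 923 in B16_IFNg, 387, 1217 and 2093 in Res499, and 2112, 1646 and 311 in B16_untreated. The one 8499 bp away (chr12:85485773-85486630) ranked 6301, 4736 and 6185 in Res499, 3374, 934 and 2406 in B16_IFNg, and 3371, 2214 and 6234 in B16_untreated. There every Res499 library was behind every B16_IFNg library, and the groups overlapped at the other region. Other AP-1 genes with a region included Fosb, Atf3 and Jdp2.

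Among 51 interferon and antigen presentation genes, of which 49 were matched, 6 had 9 intergenic regions, 6 of them in at least 3 libraries. Of the matched genes, 30 had a used peak at a gene end in any library, and 10 had a gene end region used in all 9. Socs3, a feedback inhibitor of cytokine signalling, had a region 2117 bp away with ranks of 744, 2051 and 1094 in B16_IFNg, 627, 5062 and 4937 in Res499, and 819, 2283 and 2032 in B16_untreated. A region near Usp18, another feedback inhibitor, was used in 8 libraries. Irf1 had 3 regions, used in 3, 2 and 1 libraries. None of the 9 regions near genes of this list, which does not hold Ifna13, was called gained or lost, and with 6 of them used in at least 3 libraries few calls were possible.

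Among 23 genes of Ras-MAPK output and feedback, 13 had 20 intergenic regions, 8 of them in at least 3 libraries. Dusp6, a phosphatase of ERK, had a region 16286 bp away (chr10:99283775-99284845) with ranks of 5070, 4712 and 953 in B16_IFNg, 2126, 1034 and 2833 in Res499, and 2629, 1677 and 2143 in B16_untreated. Its peaks were 369 to 586 bp wide in B16_IFNg, 436 to 602 bp in Res499 and 593 to 927 bp in B16_untreated. Spred1, described above, was the one gene of this list with a lost region. Of 24 Hippo pathway genes 7 had 9 regions, and the one near Tead4 ranked 686, 854 and 223 in B16_IFNg, 546, 2224 and 547 in Res499, and 115, 507 and 542 in B16_untreated. Of 33 neural crest genes 8 had 9 regions, of 22 NF-kB genes 3 had 3 regions, and of 19 ligands of inhibitory and costimulatory receptors 2 had 2 regions. Of 8 fibroblast markers 1 had a region, and of 7 endothelial markers 1, Emcn, had a region, used in 1 library of B16_IFNg and in all 3 of Res499 and of B16_untreated, while no endothelial marker had an open gene end. Over all 11 lists, the regions near Lcp2, Spred1 and Jdp2 were the ones gained or lost in any of the 4 comparisons.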

How the data were processed

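ATAC-seq peak lists of 9 libraries, 3 for each group, were analysed. Reads were handled with CASAVA, cutadapt 1.9 and Bowtie2 2.2.4 on GRCm38/mm10 and peaks called with MACS2, per the submitters' processing notes. Settings, the MACS2 version and whether reads were shifted for the transposase's cut are not given in the sources used here, and a missing shift would move peak edges by a few bases. Each deposited list holds the peaks of 1 library with a score, the fold enrichment at the summit, the −log10 p and the −log10 q, all as the authors' peak caller wrote them. These are the peaks' own values and are used within a list only.

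In each library the 9214 peaks with the highest −log10 p on chromosomes 1 to 19 and X were used. Ties at the limit (222 and 224 peaks in the first and the third B16_IFNg library, at most 21 elsewhere) were ordered by a seeded random draw. Distances were taken to 21631 protein-coding genes, and 27923 non-coding entries gave the annotation, both from RefSeq on GRCm38. Of 248 names on 11 gene lists, 246 matched. Summit fragment numbers were recovered from the deposited fold and −log10 p, within 0.01 of the deposited value for at least 99.97% of peaks. Total depth is unknown, and no interval was computed from counts. Groups were compared over libraries with two-sided exact permutation tests, adjusted by Benjamini-Hochberg over 12 tests and, for measures chosen after seeing the data, over 16 others. The intergenic share of distal peaks and the share at tRNA genes and non-coding RNA ends were in neither family and were not adjusted. Python 3.11.15, pandas 2.3.3, NumPy 2.4.6, SciPy 1.17.1 and matplotlib 3.10.9 were used, and the code was tested on simulated data.

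The regions and lists were chosen with earlier results of these data known. The text names the regions near Lcp2, Cyp24a1 and Spred1, up to 10 gained and 10 lost per comparison by mean rank, the 10 best-ranked in all 9 libraries, the 5 widest and up to 20 near list genes, and the remaining ones, including the regions near Litaf, Dct and Irf1, the non-coding starts and the printed sequences, were chosen after their values were seen. A planned search of all regions for sequence features was replaced by RefSeq promoter windows, as no genome was used here. Alternatives were lists of 4607 peaks and full lists, ranking by fold, other merging rules, other distance limits, fragment length sets and leaving out each library. Some results are not reported here.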

Additional observations from a re-analysis of the deposited data

How the results depend on the processing

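The lower intergenic share in B16_IFNg and Res499 together kept its sign under every alternative run. It ran from -5.12 points with all deposited peaks to -0.751 points, with exact permutation p from 0.0119 to 0.143. The exact permutation p adjusted over the share, width and rank tests of a setting stayed above 0.05. With all deposited peaks there were no rank tests, so that family was smaller, and the adjusted exact permutation p was 0.0952. The deviations of same-numbered libraries of different groups had correlations of -0.0334 to 0.0990 over 9 pairs. Over the 18 pairs with different numbers these were -0.105 to 0.0656. The third library of every group was in the set with the longer shortest peak, and the second library of every group in the other set. Small correlations cannot show that libraries of a number were handled apart, and this was not tested. With the replicate number as a block, the difference in share was -1.13 points (exact permutation p = 0.0370, the smallest possible with this block). The difference in the share of distal peaks ran from -0.640 to -0.323 points when 1 library was left out, and was -2.04 points with 4607 peaks per library and -1.24 with all deposited peaks. For peaks at tRNA genes and non-coding RNA ends, the block gave an exact permutation p of 0.0370 without adjustment, again the smallest possible.

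Differences in rank and relative width were small and, except for the width ratio of Res499 against B16_untreated (-0.0924 to -0.00404), changed sign under at least 1 alternative, and the cause was not tested. With 4607 peaks per library, the rank difference from B16_untreated was -2.78 points for both groups, -3.24 for B16_IFNg and -2.33 for Res499, and that of Res499 from B16_IFNg was 0.912. The last was also 0.203 over 2.5 kb from a gene end, 1.27 within 20 kb, 0.397 within fragment length sets, 0.705 with the longer lists allowed without the second Res499 library, and -1.77 to 1.51 with 1 library left out. The difference in share between Res499 and B16_IFNg was 0.0253 with those longer lists and -0.497 to 0.266 with 1 library left out. The width ratio difference for B16_IFNg was 0.000258 with all deposited peaks, 0.00327 by fold ranking, 0.0172 within fragment length sets and -0.0686 to 0.0106 with 1 library left out. It was 0.00443 for both groups within fragment length sets, and -0.0615 to 0.0219 between Res499 and B16_IFNg with 1 library left out.

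Counts of gained and lost regions depended on the settings. The share over all regions was not computed under the alternatives, so the counts below do not show whether intergenic regions differed from other classes. With 4607 peaks per library, lost regions numbered 3 for both groups, 8 for B16_IFNg, 11 for Res499 and 5 for Res499 against B16_IFNg, and gained ones 2 for B16_IFNg, 1 for Res499 and 1 for Res499 against B16_IFNg. With all deposited peaks, lost regions numbered 122, 227, 296 and 31 in the same order, and 0 were gained in Res499. With a peak required to cover 50% of the region, 24, 49, 67 and 4 were lost, and 1 was gained in Res499 and 3 in Res499 against B16_IFNg. By fold ranking, 1 was gained in both groups, 9 in B16_IFNg and 11 in Res499. With the longer lists, 68 were lost in Res499 and 33 against B16_IFNg, and 1, 9, 21 and 31 were gained in both groups, in B16_IFNg, in Res499 and in Res499 against B16_IFNg. Within 20 kb, 14 were lost in B16_IFNg, 4 gained in Res499 and 3 against B16_IFNg, and over 2.5 kb 0 were gained in B16_IFNg. With 1 library left out, lost regions ranged over 13 to 39, 22 to 73, 35 to 96 and 13 to 42, and gained ones over 0 to 2, 1 to 22, 7 to 22 and 6 to 26, in the order of both groups, B16_IFNg, Res499 and Res499 against B16_IFNg. These ranges could hardly go below the main counts, since a call then needs fewer libraries. Of the 12 regions lost in both groups, 0 were still called with 4607 peaks per library, 2 with all deposited peaks, 7 by fold ranking and 11 with ties in file order, an alternative chosen after seeing the data. Of the regions named in the other comparisons, with 4607 peaks per library 0 of 1 gained and 0 of 10 lost in B16_IFNg, 0 of 7 and 1 of 10 in Res499, and 0 of 6 and 0 of 10 in Res499 against B16_IFNg were still called. With all deposited peaks these were 0 and 4, 0 and 4, and 0 and 2. The number of peaks in the shortest list limits which regions can be called.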
